A study of Homo sapiens with 36 samples.

Results

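HL60 is an established human cell line of acute myeloid leukemia. In HL60 cells, the response of each gene to cytarabine and daunorubicin together was compared with the sum of its responses to both drugs given alone. The comparison used every HL60 library, 12 of the 36 libraries of the series, which fall into a 2 by 2 design. Wild-type HL60 cells received DMSO (the vehicle), cytarabine at 0.1 µM, daunorubicin at 0.02 µM, or cytarabine and daunorubicin together at the same doses. Treatment lasted 24 h, and each of the 4 groups has 3 libraries labelled as biological replicates. Whether the replicates came from separate cultures or days is not given in the sources, and every p-value is relative to the spread among these libraries. The other cell lines of the series are MOLM13 and OCIAML3, of which MOLM13 serves below as a comparison.

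Cytarabine is a nucleoside analog that is phosphorylated in the cell and halts DNA synthesis, so it acts on cells in S phase. Daunorubicin, an anthracycline, inserts between DNA bases and traps topoisomerase II on the strand, which leaves double-strand breaks. Both drugs activate DNA damage checkpoints, and together they form the backbone of induction therapy in this leukemia. If each drug multiplied the level of a transcript by its own factor, the log2 effect of the combination would equal the sum of the 2 single effects. The interaction is the departure from that sum, computed as combination minus cytarabine minus daunorubicin plus DMSO on the log2 scale. An interaction above 0 means that the transcript stood higher with both drugs than the product of the single folds, and an interaction below 0 means that it stood lower.

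The libraries held 29132492 to 38002008 estimated reads (median 32089817). Mitochondrial transcripts took 4.61% to 5.36% of the estimated counts in the DMSO-treated libraries, and 5.47% to 7.72% in the drug-treated ones. Of 10 myeloid marker genes of this line, 8 passed the filter on low counts, with MPO, the myeloperoxidase of neutrophil granules, at 3129, 3927 and 3620 CPM (TMM-scaled counts relative to the library total) in the DMSO-treated libraries. The neutrophil proteases ELANE and AZU1 did not pass the filter, with at most 14 reads in any library for the first and 0 for the second. Transcripts whose identifier matched no gene were left out of the counts. Whether reads of ELANE and AZU1 were assigned to such transcripts was not tested. Their low counts therefore do not show that the 2 genes were silent. Of the markers of other lineages, 12 of 14 erythroid, 5 of 12 megakaryocyte, 3 of 8 B cell and 6 of 12 T and NK cell genes stayed under 10 reads in every HL60 library. MS4A1, which encodes the B cell antigen CD20, and CD3G, a subunit of the T cell receptor complex, were at 0 throughout. Other such markers were read in every library, among them EPOR (the erythropoietin receptor, 259 to 432 reads), CD79A (52 to 362), TRAC (163 to 581) and NKG7 (128 to 1321). Bulk RNA cannot tell fewer cells of a kind from less RNA per cell.

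The combination departed from the sum in 802 of the 15608 genes tested, which is 5.14% (edgeR quasi-likelihood test, false discovery rate under 0.05). The interaction was above 0 in 194 genes (1.24% of those tested) and below 0 in 608 (3.9%). The combination effect was smaller in size than the sum in 761 of the called genes (4.88% of those tested) and larger in 41 (0.263%). The smaller class held 573 rises (3.67%) and 188 falls (1.2%). The larger class held 6 rises (0.0384%) and 35 falls (0.224%). Before any adjustment, 3243 genes had p under 0.05, and the median interaction of all genes was -0.01. The sum and the interaction share the single-drug and DMSO-treated libraries, and noise in these moves a gene toward the smaller class: of all genes tested, 4394 (28.15%) had the larger combination effect. Read from the sign of the interaction against that of the combination effect, which does not share the single-drug libraries, 132 called genes were larger and 670 smaller.

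With the replicate number as a block, the count of calls rose to 2811 genes, or 18% of those tested. The interaction was above 0 in 1143 (7.32%) and below 0 in 1668 (10.7%). The effect was larger than the sum in 299 (1.92%), of which 95 were rises (0.609%) and 204 falls (1.31%). It was smaller in 2512 (16.1%), of which 1464 were rises (9.38%) and 1048 falls (6.71%). Of the 802 genes called without the block, 801 were called in the same direction with it. The exception was an uncharacterised gene, ENSG00000285976, whose adjusted p moved from 0.048 to 0.0515. The share of smaller effects was 94.9% without the block and 89.4% with it.

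**Figure D1:**
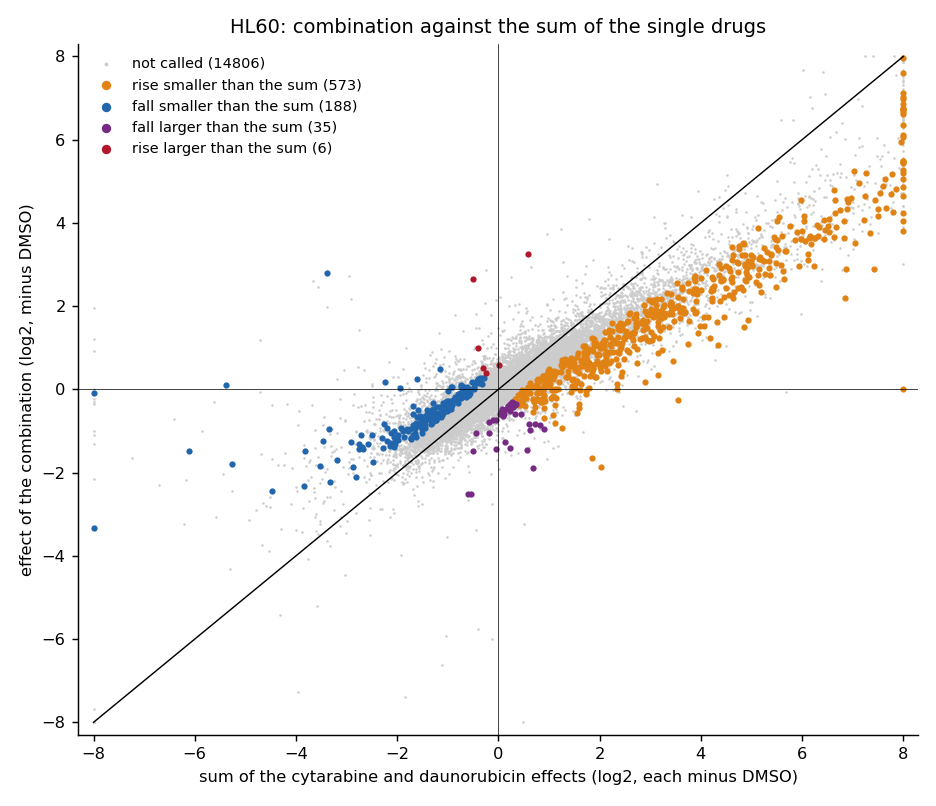
Each point is 1 of the 15608 genes tested in HL60, with the sum of both single-drug effects on the x axis and the effect of the combination on the y axis (log2, each minus DMSO). The diagonal marks equality, colours mark the 802 called genes by class, and 123 genes beyond 8 in size are drawn at the edge. The orange and blue points lie between the diagonal and the x axis or just across it, and the purple and red points lie near a sum of 0.

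In the 573 genes with a rise smaller than the sum, the drugs gave similar rises alone and together. The median effect of cytarabine was 1.52, that of daunorubicin 1.37 and that of the combination 1.51. Cytarabine alone raised 497 of these genes past the threshold (23.6% of all genes tested were raised), daunorubicin 562 (12.8% of all) and the combination 452 (28.1% of all). With the combination 13 were below DMSO past the threshold. The definition of the class uses the same single-drug libraries and favours genes that each drug raises, so the single-drug counts are a description. The combination went past both single drugs in 217 genes, lay between them in 131 and fell short of both in 225, of which 61 stood on the other side of DMSO. Levels were low before treatment for part of the class: 148 genes had a mean under 1 CPM in DMSO-treated cells, where a log2 effect is poorly measured. When the sum was instead taken on the linear CPM scale, the combination was still below it in 546 of the 573 genes, and in 416 of the 425 genes with at least 1 CPM in DMSO-treated cells.

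In the 188 genes with a fall smaller than the sum the effects were smaller in size. The median effect of cytarabine was -0.66, that of daunorubicin -0.64 and that of the combination -0.60. The combination lay past both single drugs in 45 genes, between them in 49 and short of both in 94, of which 30 stood above DMSO. Cytarabine lowered 151 of them past the threshold (22% of all genes tested were lowered), daunorubicin 184 (9.14% of all) and the combination 127 (25.3% of all). Here too the definition of the class favours genes that each drug lowers.

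The 41 genes with an effect larger than the sum had another pattern, in which the single drugs mostly pulled in opposite directions. In 6 of the 6 larger rises and 29 of the 35 larger falls the single-drug effects had opposite signs. Daunorubicin alone was on the other side of DMSO from the combination in 6 of 6 and 35 of 35, though past the threshold in 3 and 11 genes. Over the larger falls the median effect of cytarabine was -0.20, that of daunorubicin 0.35 and that of the combination -0.74. For the larger rises they were 0.33, -0.60 and 0.79. A sum near 0 makes almost any combination effect the larger one, and the definition of the class favours genes whose single effects oppose each other.

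**Figure D2:**
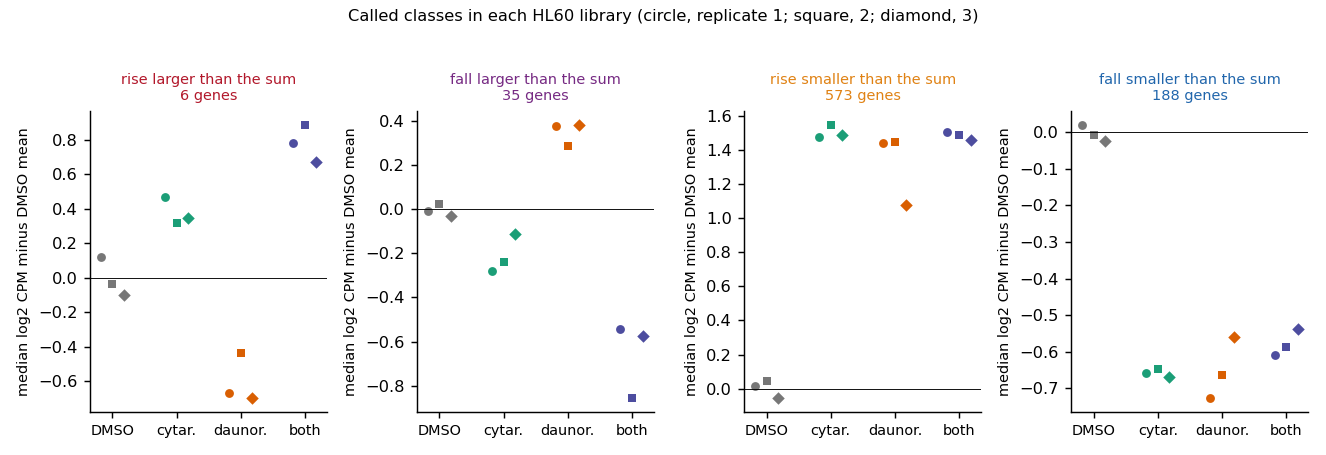
The median over the genes of each called class is plotted for each of the 12 HL60 libraries, as log2 CPM minus the mean of the DMSO-treated libraries (symbols mark the replicate number, and each panel has its own y range). In the rises smaller than the sum the 3 combination libraries (1.46 to 1.51) stand among the cytarabine libraries (1.48 to 1.55), and daunorubicin replicate 3 stands apart at 1.08.

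One daunorubicin library stood apart from its group in the largest class. The median rise of the 573 genes was 1.44 and 1.45 in daunorubicin replicates 1 and 2 and 1.08 in replicate 3. Without daunorubicin replicate 3, 1019 genes were called, and without daunorubicin replicate 2, 341. Leaving out any 1 library kept the smaller class far ahead, with 328 to 990 smaller and 9 to 57 larger genes over the 12 fits.

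ID1, an inhibitor of basic helix-loop-helix transcription factors, had the largest rise beyond the sum among protein-coding genes. It lies on chromosome 20 (31605283 to 31606515, GRCh38). It was at 0.73, 1.11 and 0.38 CPM in DMSO-treated cells, 3.39, 1.68 and 2.22 with cytarabine, 0.33, 0.43 and 0.25 with daunorubicin, and 11.3, 5.573 and 4.405 with the combination. The combination libraries were above all others, while the DMSO and daunorubicin libraries overlapped. Multiplying the single-drug folds would give 1.11 CPM, and the combination mean was 7.09 CPM. The interaction was 2.66 ± 0.65 (SE, adjusted p = 0.0328), and it was called in 4 of 12 fits with 1 library left out.

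BIRC2 encodes cIAP1, a ubiquitin ligase that restrains caspase activation and non-canonical NF-kB signalling. Its level was 33.3, 34.9 and 30.7 CPM with DMSO, 34.5, 37.3 and 38.9 with cytarabine, 22.8, 24.2 and 24.5 with daunorubicin, and 43.98, 52.26 and 44.05 with the combination. Daunorubicin libraries were below and combination libraries above all others. The interaction of 0.81 ± 0.15 (adjusted p = 0.00876) was called in all 12 fits with 1 library left out.

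NCAPG, a subunit of the condensin I complex that compacts mitotic chromosomes, and CCDC82, a coiled-coil protein, followed the same order. NCAPG was at 131.6, 113.1 and 118.6 CPM with DMSO, 88.96 to 92.81 with daunorubicin and 144.5 to 173.1 with the combination, which overlapped cytarabine (113.4 to 147.4). Its interaction was 0.65 ± 0.16 (adjusted p = 0.0338), and that of CCDC82 0.58 ± 0.14 (adjusted p = 0.0338). With 1 library left out, NCAPG was called in 4 of 12 fits and CCDC82 in 2. The other 2 genes of this class were SYCE2, part of the synaptonemal complex, and ENSG00000283674, a long noncoding RNA, which fell outside the rule for named genes and were looked up after their values were seen.

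Among the 8 named falls beyond the sum, RAC3 was the one whose call held in every fit made. RAC3 encodes a small GTPase that acts on the actin cytoskeleton, and it lies on chromosome 17 (82031678 to 82034204). Its levels were 18.1, 18.5 and 15.7 CPM with DMSO, 19.4, 16.1 and 20.7 with cytarabine, 28.8, 32.1 and 30.1 with daunorubicin, and 11.9, 5.24 and 9.94 with the combination. Daunorubicin alone raised RAC3 above every other library, and the combination libraries lay below every other. The interaction was -1.86 ± 0.31 (adjusted p = 0.00646).

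MZB1, a chaperone cofactor of the endoplasmic reticulum known from plasma cells, was also highest with daunorubicin and lowest with the combination. It went from 18.2, 21.6 and 17.2 CPM with DMSO to 42.3, 34.6 and 35.5 with daunorubicin and to 9.99, 2.36 and 8.56 with the combination. No 2 groups of the 4 overlapped, since cytarabine gave 15.6, 11.1 and 15.9 CPM. The interaction was -2.01 ± 0.50 (adjusted p = 0.0346) and was called in 5 of 12 fits with 1 library left out.

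HSD11B2, the enzyme that inactivates cortisol, fell from 5.31 to 5.97 CPM with DMSO to 0.53 to 1.35 with the combination, with an interaction of -1.91. PRR5 (a subunit of mTORC2, -1.67), ACTL8 (an actin-like protein, -1.65), LAMP5 (a lysosome-associated membrane protein, -1.60), APLN (the peptide ligand apelin, -1.55) and B3GNT7 (a glycosyltransferase, -1.42) completed the 8 largest. Combination replicate 2 was the lowest library for each of the 8 genes. The call held in 1 of 12 leave-one-out fits for ACTL8, 2 for APLN, 3 for LAMP5 and B3GNT7, 6 for HSD11B2 and 8 for PRR5. All of them passed with the replicate block, with adjusted p between 0.000714 (PRR5) and 0.01995 (APLN).

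**Figure D3:**
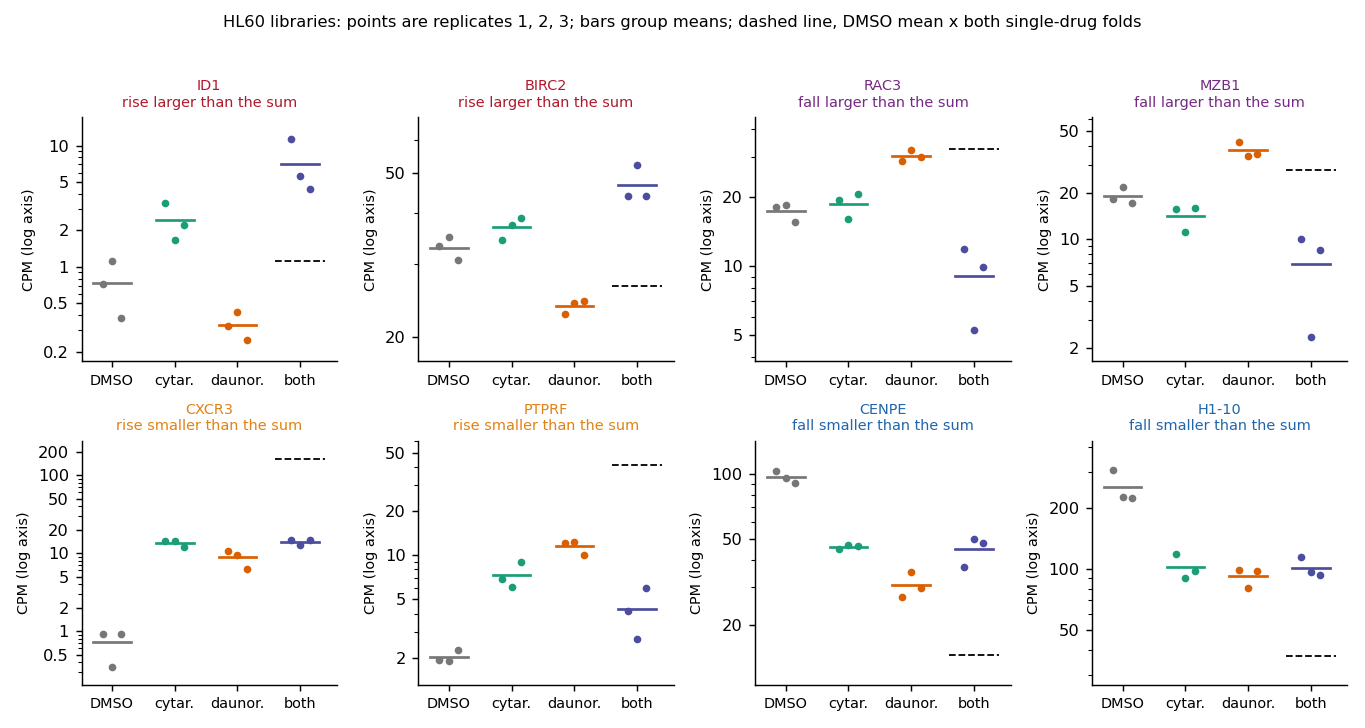
CPM of 8 genes in each of the 12 HL60 libraries on a log axis, 2 genes for each class, with points for the libraries and bars for the group means. The dashed line marks the DMSO mean multiplied by both single-drug folds, which for ID1 (1.11 CPM) lies below all 3 combination libraries and for CXCR3 (162 CPM) far above them.

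The 8 rises furthest below the sum among genes that met the rule for names had DMSO means of 0.357 to 2.04 CPM. CXCR3, the receptor of the interferon-induced chemokines CXCL9, CXCL10 and CXCL11, lies on chromosome X (71615916 to 71618511). It was at 0.92, 0.35 and 0.93 CPM with DMSO, 14.2, 14.2 and 12.1 with cytarabine, 10.7, 9.54 and 6.17 with daunorubicin, and 14.7, 12.6 and 14.7 with the combination. The combination overlapped cytarabine and was above daunorubicin. The product of the folds would be 162 CPM against a combination mean of 14 CPM, and the interaction was -3.54 ± 0.39 (adjusted p = 0.000805).

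HR, a nuclear receptor corepressor known from hair growth, had the largest departure among the genes that met this rule, -4.57 ± 0.44 (adjusted p = 0.000439). It was at 0.34, 0.45 and 0.27 CPM with DMSO, 6.55 to 11.6 with cytarabine, 3.16 to 6.53 with daunorubicin and 4.81 to 5.6 with the combination. GPSM1, a modulator of G protein signalling, and GJB2, the gap junction protein connexin 26, had a combination level that overlapped cytarabine alone (20.11 to 25.49 against 17.44 to 23.73 CPM for GPSM1, 11.25 to 12.89 against 9.87 to 13.71 for GJB2). Their interactions were -3.15 ± 0.36 and -2.82 ± 0.48. ADAMTS14, a procollagen protease, had -3.57 ± 0.55.

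PTPRF differed from these, since the combination brought it back toward DMSO. PTPRF, a receptor-type tyrosine phosphatase, was at 1.95, 1.91 and 2.27 CPM with DMSO, 6.88, 6.13 and 9.01 with cytarabine and 12.1, 12.3 and 10.1 with daunorubicin, but at 4.17, 2.71 and 5.95 with the combination. The combination libraries lay above DMSO and below every single-drug library. The interaction was -3.28 ± 0.37 (adjusted p = 0.000805). CSPG5, a chondroitin sulfate proteoglycan of the nervous system, had 1.14 to 5.44 CPM with the combination. This overlapped both DMSO (0.80 to 1.24) and cytarabine (2.48 to 6.76), and daunorubicin gave 5.49 to 7.86. Its interaction was -3.27 ± 0.69. All of these genes kept their call in each of the 12 fits with 1 library left out.

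The 8 named falls short of the sum were CENPE, PSRC1, H1-10, GMEB1, H1-2, H2BC12, KDM7A and NEFH. CENPE, a kinesin that carries chromosomes to the metaphase plate, lies on chromosome 4 (103105349 to 103198445). It was at 102.7, 95.09 and 90.06 CPM with DMSO, 44.71, 46.71 and 46.51 with cytarabine, 26.87, 35.13 and 29.69 with daunorubicin, and 37.22, 50.06 and 47.83 with the combination. The combination libraries overlapped cytarabine and lay above every daunorubicin library. The product of the folds would be 14.7 CPM against a combination mean of 45 CPM, and the interaction was 1.62 ± 0.18 (adjusted p = 0.000805).

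PSRC1, a microtubule-binding spindle protein, was at 26.5 to 32.4 CPM with DMSO and between 8.23 and 13.2 CPM in all 9 treated libraries, with an interaction of 1.64 ± 0.20. The linker histone gene H1-10 behaved alike, at 307.7, 225.8 and 222.4 CPM with DMSO and 80.85 to 118.1 in the treated libraries, and its interaction was 1.44 ± 0.21. GMEB1, a factor that binds glucocorticoid modulatory elements, had 1.48 ± 0.30, and all 3 were called in each of the 12 fits with 1 library left out. H1-2, H2BC12, KDM7A (a histone demethylase) and NEFH (a neurofilament subunit) had 2.40, 2.04, 1.65 and 1.54. With 1 library left out, the call held in 12 of 12 fits for H2BC12, 5 for H1-2, 5 for KDM7A and 2 for NEFH. KDM7A was lowered by daunorubicin alone, to 1.33 to 1.67 CPM from 3.16 to 4.38, while cytarabine (3.55 to 5.5) and the combination (4.01 to 7.3) overlapped DMSO.

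The promoters of 4 mitotic genes called in HL60 are shown because members of this group moved together, and promoters of genes expressed in G2 and M phase are known for a CHR element next to CCAAT boxes bound by NF-Y. Each sequence runs from 200 to 31 bases before the RefSeq start in GRCh38.p14, read 5′ to 3′ on the gene's strand, and capitals mark the CCAAT box on either strand, the CHR letters TTTGAA on either strand, and the variant TTTAAA, which reads the same on both strands. They are CDC20 (an activator of mitotic exit, chr1:43358781-43358950, plus strand), CCNB2 (cyclin B2, chr15:59104946-59105115, plus strand), CENPF (chr1:214602995-214603164, plus strand) and DLGAP5 (chr14:55191616-55191785, minus strand).
CDC20: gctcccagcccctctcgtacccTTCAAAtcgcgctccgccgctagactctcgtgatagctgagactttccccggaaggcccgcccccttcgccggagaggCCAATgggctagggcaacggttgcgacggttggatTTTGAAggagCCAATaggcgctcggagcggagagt
CCNB2: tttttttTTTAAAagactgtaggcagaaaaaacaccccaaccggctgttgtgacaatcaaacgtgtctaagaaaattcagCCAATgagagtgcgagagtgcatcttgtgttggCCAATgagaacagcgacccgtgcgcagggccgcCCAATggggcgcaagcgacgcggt
CENPF: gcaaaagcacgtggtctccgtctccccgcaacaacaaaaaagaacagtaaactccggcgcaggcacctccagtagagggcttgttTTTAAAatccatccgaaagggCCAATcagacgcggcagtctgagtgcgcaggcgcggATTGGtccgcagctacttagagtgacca
DLGAP5: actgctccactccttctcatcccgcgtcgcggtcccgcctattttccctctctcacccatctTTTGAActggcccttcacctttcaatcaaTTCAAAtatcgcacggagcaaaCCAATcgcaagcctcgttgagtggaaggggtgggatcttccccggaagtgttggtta

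The letters CCAAT occurred, on either strand, in the promoter window (250 bases before to 50 after the start) of 13 of the 14 called mitotic genes with an entry, 92.9%, and in 36.6% of the 10638 promoters of tested genes. TTTGAA occurred in 9 of these 14 and TTTAAA in 9, against 1084 and 827 of the 10638. The mitotic genes not called had CCAAT in 7 of 11, TTTGAA in 6 and TTTAAA in 4. Over the whole class of falls smaller than the sum, CCAAT was in 56% of 159 promoters, and over the rises smaller than the sum in 27.8% of 431. A match is a description of letters and not of a bound site.

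Of 30 genes of mitosis and the spindle, 16 (53.3%) were called against the background of 5.14%, and all 16 were falls smaller than the sum. The interaction was above 0 in 30 of 30, with a median of 0.54 beside -0.01 for all genes. The list's median effect was -0.43 for cytarabine, -0.57 for daunorubicin and -0.44 for the combination. Summed over the list, DMSO-treated libraries held 3558 to 3847 CPM, cytarabine 2413 to 2617, daunorubicin 2246 to 2401 and the combination 2502 to 2620. Each treatment was below DMSO, and the combination stood no lower than either drug. This list was chosen with results of these data known, so its count is a description.

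CDC20, which activates the anaphase-promoting complex, stood at 229.9 to 234.7 CPM with DMSO, 63.09 to 70.47 with cytarabine, 65.75 to 104.3 with daunorubicin and 43.78 to 52.45 with the combination. Here the combination fell below both drugs but by less than their sum, and the interaction was 1.09 ± 0.20 (adjusted p = 0.00975). PLK1, the Polo-like kinase of mitotic entry, followed the same order, with 0.74 ± 0.14. CENPF, a kinetochore protein, overlapped between all 3 treatments, and its interaction was 1.27 ± 0.21. DLGAP5, a spindle protein, had 1.27 ± 0.15, and its combination libraries lay above every daunorubicin library. DLGAP5 was at 48.89 to 53.24 CPM with the combination, 45.46 to 51.38 with cytarabine and 39.53 to 44.46 with daunorubicin, from 87.45 to 111.8 with DMSO.

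CENPE, described above, had the list's highest interaction. The remaining called members were CCNB1 and CCNB2 (cyclins B), AURKA (Aurora kinase A), BUB1 (a checkpoint kinase), the kinesins KIF11, KIF14, KIF20A and KIF23, TPX2 and PRC1 (microtubule binders) and PTTG1 (securin), with interactions of 0.44 to 1.06. CDK1, the kinase that these cyclins activate, had 0.03 and was not called. With 1 library left out, the call held in 12 of 12 fits for AURKA and KIF20A and in 11 for BUB1 and TPX2. It held in 6 for PRC1, 5 for KIF11 and KIF14, 4 for CCNB2, 2 for CCNB1 and PTTG1, and 0 for KIF23. With the replicate block 22 of the 30 were called, against 18% of all genes. With all 36 libraries in 1 fit, which shares the spread with MOLM13 and OCIAML3, the median was 0.52, 30 of 30 were above 0 and 0 of the 30 were called, and without daunorubicin replicate 1 there were 7. TOP2A, the topoisomerase that daunorubicin poisons and itself a gene of proliferating cells, had 0.69 ± 0.22 (adjusted p = 0.0906).

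Of 26 replication-dependent histone genes that passed the filter, 5 (19.2%) were called, against 5.14% of all genes. They were again falls smaller than the sum, and all 26 interactions were above 0 with a median of 2.20. The called genes were H1-2, H2AC17, H2BC4, H2BC13 and H4C9. H1-2 was at 10.1, 6.02 and 5.08 CPM with DMSO, 3.88, 2.21 and 2.11 with cytarabine, 1.52, 2.07 and 1.72 with daunorubicin and 5.37, 3.9 and 1.64 with the combination. The combination overlapped all 3 other groups. Summed over the list, the combination libraries ranged from 9.82 to 37.1 CPM, more widely than DMSO (38.04 to 54.09), cytarabine (14.7 to 20.7) or daunorubicin (11.2 to 12.9). With the block 10 were called, against 18% of all genes, and with 1 library left out 0 to 7. Histone copies are nearly identical and few reads covered them, so the single genes are uncertain.

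Of 23 genes of leukocyte adhesion 5 were called, against 5.14% of all genes, all of them rises smaller than the sum, and a median interaction of -0.24. ITGB7, an integrin beta chain that homes lymphocytes to the gut, was at 1.41, 1.5 and 1.03 CPM with DMSO, 15.97 to 22.2 with cytarabine, 4.95 to 12.12 with daunorubicin and 21.94 to 27.66 with the combination. ICAM1, a ligand of leukocyte integrins, was at 1 to 1.56, 48.73 to 70.18, 4.95 to 9.47 and 60.6 to 120.8 CPM in the same order. Their interactions were -2.41 ± 0.40 and -2.02 ± 0.45. On the linear CPM scale the combination mean of ICAM1 lay above its single-drug means added together, so its rise was smaller than the sum on the log2 scale alone. ICAM2 and ITGB3 were also called, though ITGB3 had 0 reads in the DMSO-treated libraries and at most 32 elsewhere, which leaves its fold without a base. With 1 library left out, 1 to 5 of the list were called.

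Of 16 BCL2 family genes 3 (18.75%) were called, against 5.14% of all genes. BIK and BMF, BH3-only proteins that trigger mitochondrial apoptosis, had rises smaller than the sum. BIK was at 9.66 to 13.74 CPM with DMSO, 16.72 to 25.19 with cytarabine, 25.53 to 33.54 with daunorubicin and 15.58 to 19.41 with the combination, where it stood below every daunorubicin library (interaction -1.53 ± 0.25, adjusted p = 0.00581). BMF was at 7.41 to 8.24, 60.15 to 81.82, 17.53 to 27.87 and 82.19 to 92.13 CPM in the same order, highest with both drugs (-1.32 ± 0.23, adjusted p = 0.00666). MCL1, which opposes them, had a small fall with daunorubicin that was not seen with the combination (0.47 ± 0.13, adjusted p = 0.049, kept in 1 of 12 fits with 1 library left out).

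The called genes of the monocyte, NF-kB, interferon, chemokine and cytokine lists were rises smaller than the sum, as were 573 of all 802 called genes. CD86, a costimulatory ligand of antigen-presenting cells, was at 0.79 to 1.07 CPM with DMSO and 17.09 to 18.86 with the combination, against 12.55 to 16.39 with cytarabine and 2.80 to 8.88 with daunorubicin (-2.55 ± 0.45). TNFRSF1B, the second receptor of tumor necrosis factor, had -1.37 ± 0.24. NFKB2 (a subunit of non-canonical NF-kB) and ICAM1 were the 2 of 18 genes called among NF-kB subunits and feedback genes, GBP2 and CMPK2 the 2 of 30 interferon-stimulated genes, CXCL11 the 1 of 12 chemokines, and LIF and IL1RN the 2 of 21 cytokines. These shares are to be read beside the 5.14% of all genes tested. The medians of these lists were -0.44, -0.65, -0.38 and -0.45. The B cell genes PAX5 (-2.12 ± 0.32) and CD79A (-1.31 ± 0.31) were also called. The summed level of the tested B cell markers went from 3.51 to 3.79 CPM with DMSO to 14.01 to 15.08 with cytarabine, 8.82 to 13.96 with daunorubicin and 14.75 to 15.86 with the combination, while MS4A1 and BLK stayed at 0.

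Among metabolic and stress genes, HSPA5, the main chaperone of the endoplasmic reticulum, fell by less than the sum. It was at 1012 to 1107 CPM with DMSO, 427.5 to 502.9 with cytarabine, 467.5 to 764.1 with daunorubicin and 427.2 to 631 with the combination, and all 3 treated groups overlapped (1.06 ± 0.24). CBS, of the transsulfuration pathway, had -0.84 ± 0.14 and TM7SF2, a sterol reductase, -1.49 ± 0.30. In DNA synthesis, the helicase loader CDC45 (-0.65 ± 0.13) and thymidine kinase TK1 (-0.64 ± 0.15) rose with each drug and by less than the sum with both. WEE1, the kinase that holds back CDK1, fell by less than the sum (0.65 ± 0.14).

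The remaining lists are given by their counts, beside the 5.14% of all genes called. Called were 1 of 32 DNA replication genes (CDC45), 1 of 30 nucleotide and folate synthesis genes (TK1), 1 of 22 checkpoint genes (WEE1), 2 of 23 genes of G1 to S control (CDKN1B and RBL1), 1 of 28 protein folding genes (HSPA5) and 2 of 24 ATF4 target and serine synthesis genes (ALDH1L2 and CBS). Called were also 2 of 20 aminoacyl-tRNA synthetases, 1 of 31 lipid synthesis genes (TM7SF2), 1 of 19 oxidative stress, heme and iron genes (BLVRB), 1 of 27 proteasome genes (PSMD1), 1 of 22 death receptor and caspase genes (TNFRSF1B), 1 of 18 myeloid factors (ID1), 1 of 28 immediate early factors (EGR4) and 1 of 6 megakaryocyte markers (ITGB3). None was called of the MAPK feedback regulators (18 tested), phagocyte oxidase (8), the MYC and MAX network (11), small nucleolar RNA host genes (14), mitochondrial genome transcripts (13), erythroid (2) and T and NK cell markers (5) or the myeloid markers of the line (8), by edgeR. At an unadjusted p under 0.05 these lists held 4, 3, 2, 0, 1, 0, 4 and 2 genes, and DESeq2 called 2, 1, 1, 0, 0, 0, 1 and 0. Of all 15608 genes tested, 20.8% had an unadjusted p under 0.05, and DESeq2 called 1430.

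**Figure D4:**
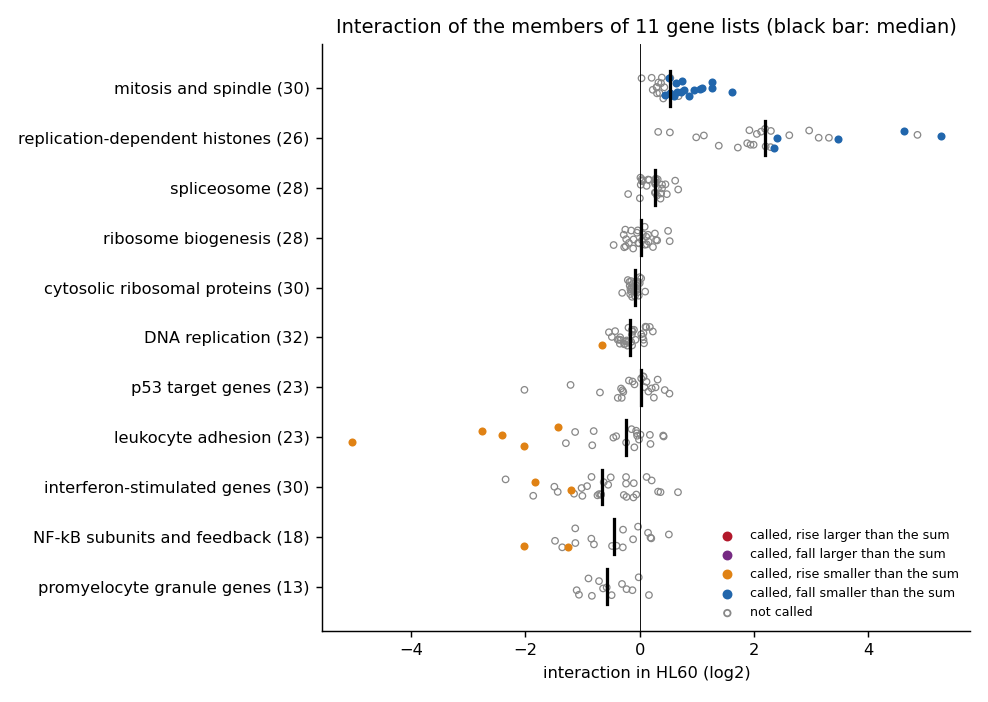
The log2 interaction of each tested member is shown for 11 gene lists, with filled points for called genes, open points for the others and a black bar at the list median (number tested in brackets; vertical position within a row is random). All mitosis and histone members lie above 0, and the medians of ribosome biogenesis and p53 target genes lie at 0.02 and 0.03.

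Several lists had no called departure from the sum, beside 5.14% of all genes tested. In lists of this length, 0 called lies near that share. Of 28 ribosome biogenesis genes 0 were called, although their median effect was -1.06 for cytarabine, -0.45 for daunorubicin and -1.42 for the combination. Their median sum was -1.53 and the median interaction 0.02, with single genes from -0.46 to 0.53. HL60 is known to lack p53, a possible role of which was not tested. Of 23 p53 target genes 0 were called too, with median effects of 0.35 for cytarabine, 0.07 for daunorubicin and 0.37 for the combination. CDKN1A, the cell cycle inhibitor p21, was nearest to a call. It was at 0.10 to 0.38 CPM with DMSO, 36.91 to 44.64 with cytarabine, 1 to 2.87 with daunorubicin and 68.37 to 114.2 with the combination, which was above all other libraries (-2.02 ± 0.57, adjusted p = 0.0589, 0.0187 with the block). On the linear CPM scale every combination library lay above the cytarabine and daunorubicin levels added together. The value below 0 therefore holds for the log2 scale alone, and the low DMSO level leaves it poorly measured.

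The cytosolic ribosomal proteins (30 tested), double-strand break repair (30), spliceosome (28), cytarabine and anthracycline handling (17) and promyelocyte granule genes (13) also had 0 called. With the block the counts were 0, 6, 9, 5 and 6, in DESeq2 0, 3, 1, 3 and 0, and at an unadjusted p under 0.05 in edgeR 1, 8, 8, 6 and 3. For ribosome biogenesis these counts were 2 with the block, 1 in DESeq2 and 1 unadjusted, and for p53 targets 3, 2 and 3. These counts are to be read beside the shares of all 15608 genes tested. With the block 18% were called, and 20.8% had an unadjusted p under 0.05 in edgeR. DESeq2 called 1430 genes in all. Of the 6 granule genes called with the block, 5 were falls larger than the sum, a class with 1.31% of all genes tested in that fit. MPO, the most abundant of them, was at 1025 to 1512 CPM with cytarabine, 2519 to 4016 with daunorubicin and 476.2 to 847.6 with the combination, lower than every other library (-0.71 ± 0.30, adjusted p = 0.199, 0.0464 with the block). DCK, the kinase that activates cytarabine, had 0.42 ± 0.13 (adjusted p = 0.0887).

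The transcripts of the classes differed in base composition, and the interaction moved with it across all genes. Median GC content of the most abundant transcript was 48.5% over all tested genes, 58.0% in the rises smaller than the sum, 60.4% in the larger falls, 42.7% in the falls smaller than the sum and 42.0% in the larger rises. In 5 groups of equal size ordered by GC content, the median interaction went from 0.19 in the lowest to -0.21 in the highest. Calls below 0 went from 16 to 305 over these groups, and calls above 0 from 76 to 11. With each library's trend over GC content as an offset, a setting added after seeing the data, 621 genes were called (589 smaller and 32 larger), and of the mitotic genes 12. With GC offset and block 2510 were called (2208 smaller and 302 larger). Of 78 called values of named genes, 58 kept the call with the GC offset and 20 lost it, among them ACTL8, APLN, B3GNT7, CCDC82, NCAPG, CCNB1, CCNB2, TK1 and MCL1. With block and GC offset all 78 kept it.

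**Figure D5:**
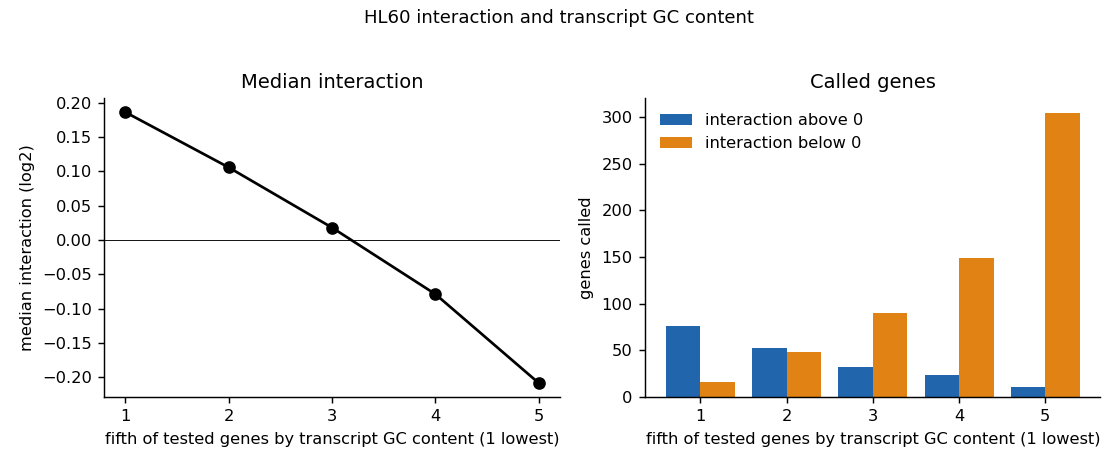
Tested HL60 genes are split into 5 groups of equal size by transcript GC content, with the median log2 interaction at left and the number of called genes above and below 0 at right. The median falls from 0.19 to -0.21, and 305 of the 608 called genes below 0 are in the group with the highest GC content.

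MOLM13 received the same 4 treatments, as did OCIAML3, and shares no library with HL60. The difference from OCIAML3 was not analysed here. In MOLM13 3049 of 16184 genes (18.8%) were called by the same test, 1616 above 0 (9.99%) and 1433 below (8.85%), or 3045 smaller and 4 larger than the sum. The difference of the 2 interactions was tested in 1 fit of 24 libraries, and 360 of 17827 genes (2.02%) passed, 75 higher in HL60 (0.421%) and 285 lower (1.6%). Of the HL60 classes, the interaction differed from that of MOLM13 in 17 of 35 larger falls, 3 of 6 larger rises, 78 of 573 rises smaller than the sum and 14 of 188 falls smaller than the sum. These classes were picked on the same HL60 libraries, which pushes their difference away from 0. No member of the mitosis, adhesion and replication-dependent histone lists passed. The histone gene H2BC12 and the spindle gene PSRC1 did pass, but they had not been put on these lists. A gene that did not pass is not thereby shown to be alike in the 2 lines.

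RAC3 had an interaction of -1.86 in HL60 and 0.79 in MOLM13, a difference of -2.66 (adjusted p = 0.00719). PRR5 (-1.67 and 0.76, adjusted p = 0.0115) and CSPG5 (-3.27 and 1.00, adjusted p = 0.0295) were also of opposite sign in the 2 lines, though the MOLM13 interaction of CSPG5 was not called. BIRC2 had 0.81 in HL60 and -0.09 in MOLM13 (adjusted p = 0.0176). GPSM1 and H2BC12 departed from the sum in HL60 and were at 0.08 and -0.55 in MOLM13. For CXCR3 and ADAMTS14, the MOLM13 interactions of -2.32 and -2.62 were called too, and the difference from HL60 was not called (adjusted p = 0.34 and 0.554).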

How the data were processed

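The authors checked reads with FastQC 0.11.9 and ran Salmon 1.8.0 against Ensembl GRCh38 transcripts. For every library they deposited unnormalized estimated counts by transcript. The authors' files also hold TPM values, which were used with the effective transcript lengths for the length offset alone. The libraries were unstranded and made from total RNA. The paper used edgeR 3.38.1. The Ensembl release is not given in the sources used here. With unstranded reads, overlapping genes cannot be told apart.

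Of 252199 transcripts, 235378 had an identifier with a gene in GENCODE 44, and 3.99% to 4.44% of the HL60 counts were unmatched and left out. Counts were summed per gene, rounded, filtered by filterByExpr (minimum count 10, minimum total 15), scaled by TMM and fitted with glmQLFit and glmQLFTest in edgeR 4.0.16 (legacy quasi-likelihood, R 4.3.3), with 4 group means and no block in the 12 HL60 libraries. Adjusted p-values are Benjamini-Hochberg over all genes tested and called under 0.05. Standard errors are the size of the estimate over the square root of F. A gene is larger or smaller by the sizes of its fitted combination effect and sum, a rise or fall by the sign of the combination effect (larger) or of the sum (smaller). CPM values are TMM-scaled, and fitted effects are on the log2 scale.

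Same-numbered HL60 libraries deviated from their group means together, with correlations of 0.237 to 0.56 over all pairs of groups, against -0.47 to 0.0232 between different numbers. The numbers were therefore taken to pair the libraries. The pairing comes from the data, not from the labels. Replicate pairs differed by far more than sampling noise (chi-square per gene of 16.8 to 48.6).

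Named genes are, in each of 4 classes, up to 8 protein-coding genes with the largest interaction among those called with and without the block, with a mean of at least 10 counts in every group and 5 CPM in the highest, plus members of 39 gene lists. Some genes that met the rule are not reported here. Members, lists, tests and alternatives were chosen with earlier results of these data known, and examples within lists were picked after their values were seen. Alternatives were DESeq2 1.42.0, other scalings and filters, protein-coding genes alone, the length offset, all 36 libraries, the newer quasi-likelihood, the block, a fold threshold, other readings of direction, the linear scale, and each library left out. A GC offset and the block with each library left out were added after seeing the data. Promoter sequences are from RefSeq (GRCh38.p14), with entries for 10638 of the tested genes. The procedure was tested on simulated data without single-drug effects and without replicate pairing. That test therefore does not cover the split into effects larger and smaller than the sum. Tables were made in pandas 2.3.3 and numpy 2.4.6, and figures in matplotlib 3.10.9, under Python 3.11.15.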

Additional observations from a re-analysis of the deposited data

Results flagged for a closer look

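The HL60 interaction differed from the MOLM13 interaction in 360 genes, tested directly as the difference of both terms in edgeR. Among the named genes of the 4 classes, 9 were in this set. The HL60 interaction was higher than that of MOLM13 by 0.88 for BIRC2, 0.78 for CCDC82, 2.58 for H2BC12 and 1.26 for PSRC1 (log2). The HL60 minus MOLM13 difference was -2.66 for RAC3, -2.45 for PRR5, -1.73 for LAMP5, -4.30 for CSPG5 and -3.22 for GPSM1. These genes were picked for a large interaction in the same HL60 libraries, so the sizes of the differences are overstated to an unknown degree. Groups of 3 libraries were too small for a test of single outlying libraries, and each library was left out in turn instead.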

How the results depend on the processing

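Larger effects were rarer than smaller ones in every fit. The number of called genes, then of those larger and smaller than the sum, was 1430, 109 and 1321 in DESeq2, 1415, 137 and 1278 with no low-count filter, 444, 19 and 425 with the transcript length offset, 1349, 110 and 1239 with all 36 libraries in 1 fit, and 481, 16 and 465 for an interaction over 1 in size. Among protein-coding genes alone 62 were larger, and by the sign of the combination effect 132. With RLE, upper quartile or library totals as the scaling, the newer quasi-likelihood or the GC offset, counts stayed within 1.5 times of those reported.

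The replicate block gave 2811, 299 and 2512 genes, the block with the length offset 1400, 113 and 1287, and the block with the GC offset 2510, 302 and 2208. For the difference from MOLM13, 360 genes became 856 in DESeq2, 619 with the stricter filter, 1344 with the block, 864 with block and length offset and 1318 with block and GC offset.

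With each library left out in turn, 341 to 1019 genes were called, 9 to 57 larger and 328 to 990 smaller. The count fell by over 1.5 times without any 1 DMSO library (363 to 514), without combination replicate 2 (503), without cytarabine replicates 2 (510) or 3 (516) and without daunorubicin replicates 1 (368) or 2 (341). In the block fit the ranges were 1698 to 2761, 150 to 333 and 1531 to 2538. The block counts fell by over 1.5 times without cytarabine replicate 3 (1698 called, 167 larger and 1531 smaller), daunorubicin replicate 1 (1768, 176 and 1592) or daunorubicin replicate 2 (1748, 179 and 1569), and those larger also without combination replicate 2 (150) or cytarabine replicate 2 (174). For the difference from MOLM13 the range was 168 to 687. Of 78 called values of named genes, 48 lost the call when 1 library was left out and 0 changed sign in any setting.

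What limits these results is that 3 libraries per group estimate 4 means, that low counts in DMSO-treated cells enter both single effects, and that the replicate pairing is read from the data. The causes of the changes between settings were not tested.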

Other observations

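Ribosome biogenesis and p53 target genes, which had 0 calls in HL60, were the lists in which the interaction most often differed from that of MOLM13. The difference passed for 10 of 28 ribosome biogenesis genes (median difference -0.88) and 7 of 23 p53 target genes (median difference 0.93), against 2.02% of all genes. It passed for 0 of 30 mitotic, 0 of 32 DNA replication and 0 of 31 cholesterol and fatty acid synthesis genes, whose median differences were 0.51, -0.23 and -0.65. The error can be wide, as for the mitotic gene CENPE, with a difference of 1.30 ± 1.18 (SE). A count of 0 therefore does not show that the 2 lines are alike in these lists. These lists were chosen with earlier results known.

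Of 25 monocyte and macrophage genes, 11 stayed under 10 reads in every library, while TLR4 (1184 to 1305 reads) and CEBPB (1187 to 1745) were well read already with DMSO. CD86 was the 1 of 14 tested members called. CSF1R, the receptor of macrophage colony-stimulating factor, had 3 to 4 reads with DMSO, 34 to 45 with cytarabine, 9 to 13 with daunorubicin and 53 to 78 with the combination. S100A9, a calcium-binding protein of neutrophils and monocytes, had 153 to 166, 395 to 949, 141 to 257 and 991 to 2314 reads in the same order, so the combination libraries were above all others. FCGR2A, an Fc receptor, followed with 106 to 196, 524 to 678, 169 to 292 and 738 to 1174 reads. FCGR1A and CD80 did not follow this order, with 97 to 158 and 4 to 10 reads with the combination against 119 to 189 and 5 to 17 with cytarabine. These examples were picked after their values were seen.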
